A study of Oryza sativa Japonica Group with 96 samples.

Results

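A set of 100 array features was studied whose level stood lower late than early in both lines of a rice crown root series. For each line and feature, the mean of 39, 42 and 45 h was taken minus the mean of 0 and 3 h, and the 100 features with the most negative value in the line that fell less were kept, of 36643 features in all. Each of the 100 was below 0 in both lines. The tissue was the stem base of rice seedlings (Oryza sativa Japonica, cultivar Taichung 65), and all plants of both lines carried the crl1 mutation, which removes crown roots. Line DX held the empty vector pINDEX2 and line DXC held the same vector with the CRL1 gene, which encodes a transcription factor, so that dexamethasone switches CRL1 on in DXC only. Seedlings of every group spent 5 days in dishes under 14 h of daylight and then 24 h at rest in flasks, so hours of 1 day can differ in light. Both lines received 1 µM dexamethasone at 0 h, and the medium was changed 5 h later. Each line was sampled at 16 hours, every 3 h from 0 to 45 h, in 3 experiments repeated independently, giving 3 arrays for each line and hour and 96 in total. DXC was a single transgenic line, called DXC3 in an earlier paper per the labels, and each sample pooled 8 to 12 ground stem bases.

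The stem base holds the shoot meristem, the bases of young leaves and the tissue in which crown roots start. Cell enlargement there depends on proteins that loosen or cut wall polymers, among them expansins and endo-glucanases. Sucrose reaches growing tissue through the phloem and can be split outside the cell by cell wall invertases. Transporters of the SWEET family move sugars, sucrose among them. Chlorophyll synthesis in young leaf bases passes through protochlorophyllide, which light-dependent oxidoreductases reduce.

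The 100 members were mostly features without a gene symbol. Exactly 1 gene symbol was annotated for 30 members, each a different protein-coding gene, and none for 70 (70.0%, against 33.8% of all features). Only 4 of the 30 genes had a name other than a locus number: EXPB15, a beta-expansin that loosens walls, GLU15, an endo-1,4-beta-glucanase, PORA, a protochlorophyllide oxidoreductase, and CIN2 (GIF1), a cell wall invertase. The other 26 are given by their locus symbols, without a role. The members made 89 distinct profiles, since 17 of them fell into 6 sets with identical values on all arrays, the largest set holding 4; features of a set are 1 measurement, and 10.68% of all features share values in this way.

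Levels are log2 expression values normalized by the authors. Array medians ran from 4.62 to 4.76, and arrays of 1 line and hour correlated by a median of 0.971 (lowest 0.89). The SD over features of an array was not even, averaging 1.65 in DXC and 1.52 in DX at 0 to 9 h, against 1.59 and 1.60 at 12 to 21 h, 1.53 in both at 24 to 33 h, and 1.57 and 1.58 at 36 to 45 h. The early DXC arrays were therefore wider than the early DX arrays, and the part of this in the results was tested only as far as the alternatives in the closing section go. The labelled tissue was checked on 3 marker lists. The 8 KNOX features of the shoot meristem list had means from 3.23 (OSH43) to 6.03 (OSH3), with OSH1 at 5.31. The 7 leaf photosynthesis features had means from 3.65 to 7.94, and the 14 seed storage and amylase features from 2.42 to 4.36. The lowest KNOX and leaf features lay within the range of the seed list, so these means do not settle the tissue. A change in a pooled tissue can reflect fewer cells of a type or less RNA per cell, which cannot be told apart here.

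The members were chosen by their levels at 0, 3, 39, 42 and 45 h, so these values are a description only and are not tested. The smaller of the 2 falls ranged from -1.75 to -0.47 on the log2 scale with a median of -0.56. It was the DX value for 78 members and the DXC value for 22. The median change was -0.58 in DX, with -0.44, -0.77 and -0.53 in experiments 1 to 3, and -0.77 in DXC, with -0.82, -0.88 and -0.65. Of the 100, 68 were below 0 in every experiment of both lines, and 4 were below -1 in both lines. The 3 members just inside the limit were 16198967 (-0.4737), LOC4340642 (-0.4737) and 16087247 (-0.4729), and the 3 features just outside were LOC4330925 (-0.4706), 16100523 (-0.4706) and 16131986 (-0.4695), so the set has no natural edge. A level difference was also no bar to membership, since mean levels of the members ran from 2.85 to 9.57 with a median of 5.09, against 4.69 for all features.

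**Figure D1:**
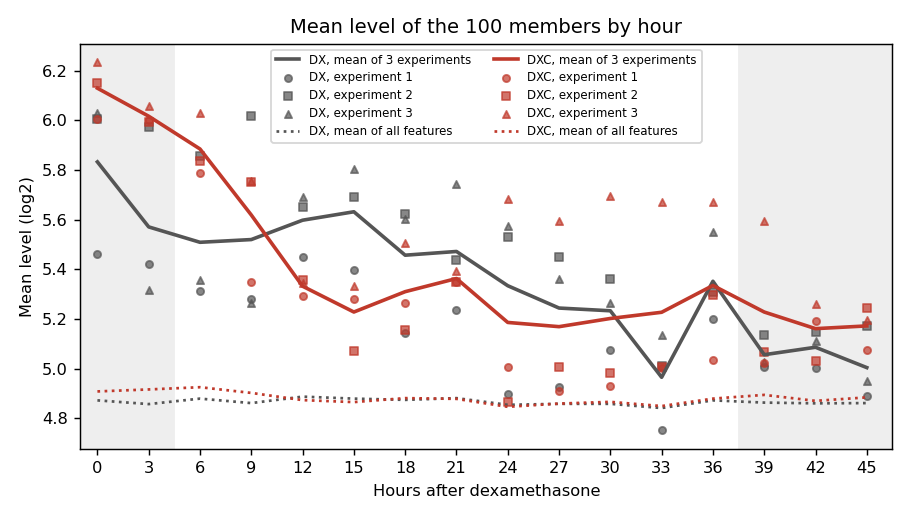
Mean log2 level of the 100 members against hours after dexamethasone, in DX (grey) and DXC (red); lines are means of 3 experiments, points are single experiments, dotted lines are the mean of all features, and grey bands mark the hours used to choose the members. DX goes from 5.83 at 0 h to 5.00 at 45 h and DXC from 6.13 to 5.17, while DXC is at 5.23 by 15 h and DX is still at 5.63.

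EXPB15 led the ranking. At 0 h it stood at 7.20, 8.82 and 8.27 in DX and at 7.54, 8.65 and 9.41 in DXC. At 45 h the 3 samples were 5.20, 7.58 and 5.76 for DX and 7.07, 5.75 and 4.44 for DXC. In DXC every 45 h sample lay under every 0 h sample, whereas in DX the 45 h sample of experiment 2 lay above the 0 h sample of experiment 1. Both hours served the choice of members, which favours such a separation here and for the genes below. The spread was wide at other hours too, as in DX at 12 h with 4.53, 8.54 and 7.63.

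The DX samples of GLU15 were 5.86, 6.05 and 6.42 at 0 h, and the 45 h samples were 4.57, 4.77 and 4.30. In DXC it went from 5.27, 6.48 and 7.37 to 4.64, 4.53 and 4.19. The samples of the 2 hours, which served the choice, did not overlap in either line, and the late samples lay close together where the early DXC samples did not. By window, DX was at 6.22 ± 0.44 at 0 and 3 h (mean ± SD, n = 3 experiments), 5.55 ± 0.56 at 6 to 12 h and 4.76 ± 0.05 at 15 to 21 h, after which the windows stayed between 4.52 and 4.68.

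PORA was among the highest members. It stood at 9.55, 9.08 and 9.79 in DX and 9.89, 9.93 and 10.32 in DXC at 0 h, and at 8.94, 8.62 and 8.66 in DX and 9.00, 8.66 and 9.08 in DXC at 45 h. In DXC it was at 8.98 ± 0.28 by 6 h and between 8.78 and 9.25 at every later hour, so that most of its difference in DXC lay before 6 h. In DX the difference came late. There PORA averaged 9.37 at 0 and 3 h, 9.13 at 6 to 12 h, 9.30 at 15 to 21 h and 9.21 at 24 to 27 h. It then stood at 8.93 at 30 to 36 h and 8.74 at 39 to 45 h.

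CIN2 stood at 6.71, 7.21 and 7.10 in DX and 7.15, 7.22 and 7.37 in DXC at 0 h. At 45 h it stood at 6.01, 6.49 and 6.17 in DX and 6.47, 6.62 and 6.69 in DXC. The samples of the 2 hours did not overlap in either line, which the choice by these hours favours.

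**Figure D2:**
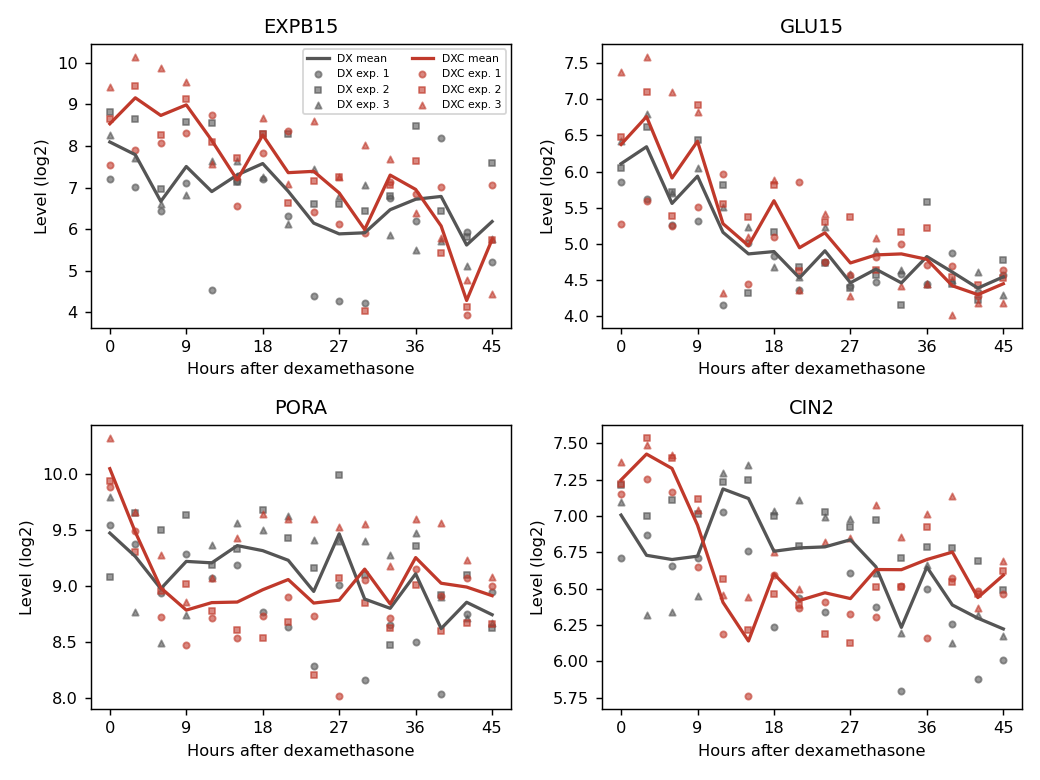
Log2 level of EXPB15, GLU15, PORA and CIN2 against hours after dexamethasone in DX (grey) and DXC (red); points are single experiments and lines are means of 3. EXPB15 and GLU15 decline over the course in both lines, PORA drops in DXC from 10.05 at 0 h to 8.98 at 6 h, and CIN2 in DXC goes from 7.33 at 6 h to 6.14 at 15 h while DX stands at 7.12 at 15 h.

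Among the genes with only a locus symbol, LOC4347709 and LOC4339315 ranked highest. LOC4347709 went from 5.77 to 4.46 in DX and from 6.56 to 5.04 in DXC, and LOC4339315 from 4.51 to 3.37 and from 4.86 to 2.88. The lines were far apart for LOC4336616, at -0.49 in DX and -1.99 in DXC, and for LOC9271283, at -0.82 and -2.22. LOC4348121 was the reverse, at -0.92 in DX and -0.57 in DXC. The remaining genes of the 10 with the largest falls were LOC4332267, LOC4351585, LOC4331137, LOC4347796 and LOC4324705, whose smaller fall lay between -0.80 and -0.68.

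Taken from the level at 0 and 3 h, which the choice of members also used, the median change in DX was -0.15 (6 to 12 h), -0.15 (15 to 21 h), -0.36 (24 to 27 h) and -0.48 (30 to 36 h). The same windows gave -0.44, -0.75, -0.82 and -0.76 in DXC. Since the choice of members fixes both ends of this course, the windows are given as levels only.

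To ask whether the decline was also present at hours that played no part in the choice, 30, 33 and 36 h were compared with 6, 9 and 12 h, which are the same hours of the day 1 day earlier. The test over both lines used the average of the 2, and it called 9 of the 30 genes lower. GLU15 averaged 5.71 at 6 to 12 h and 4.74 at 30 to 36 h, a difference of -0.97 (SE 0.18; limma adjusted p = 0.000145), with -0.57, -1.08 and -1.26 in the 3 experiments. EXPB15 fell by 1.27 on the log2 scale, from 7.82 to 6.56 (SE 0.34; limma adjusted p = 0.018), and all 3 experiments were between -1.52 and -1.03. LOC4336616 fell from 4.36 to 3.52 (-0.84, SE 0.14; limma adjusted p = 2.09e-05). The other 6 were LOC4347709 (-0.71), LOC9270481 (-0.63), LOC9271283 (-0.56, but 0.08 in experiment 3), LOC4326722 (-0.39), LOC4332174 (-0.30) and LOC4340642 (-0.24). Of these LOC4332174 did not fall in DXC, where it stood at 4.16 at 6 to 12 h and 4.19 at 30 to 36 h. PORA showed a difference of 0.00 (SE 0.14) and CIN2 of -0.30 (SE 0.10; limma adjusted p = 0.0554).

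Of all 100 members, 18 were called lower and 0 higher at a limma adjusted p under 0.05, against 4.15% lower and 1.53% higher of all features, 5.68% in all. Counting each distinct profile once, 15 were lower. The members' median difference was -0.33 with 92 below 0, where all features had a median of -0.02 and 55.4% below 0, and 50 members had an unadjusted p under 0.05. Experiment 3 carried little of it, with a median of -0.04 against -0.37 and -0.50 in experiments 1 and 2. The count depended on which experiments were used, being 4 without experiment 1, 1 without experiment 2 and 50 without experiment 3, and it was 31 with the experiment as a block, which pairs the lines. Treating the 4 arrays of consecutive hours of a line and experiment as a random block gave 5. The arrays at 6 and 9 h belong to the same 4-hour set as 0 and 3 h, and those at 36 h to the same set as 39 to 45 h.

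Within DX alone no member was called by limma, although the median was again -0.33 with 93 below 0 and 19 members at an unadjusted p under 0.05. Of all features 0.00546% were called lower and 0.0191% higher in DX (0.0246% in all), so this comparison called almost nothing. LOC4332174 came closest, at -0.63 (SE 0.14; limma adjusted p = 0.0501). GLU15 was at -0.91 (SE 0.25; limma adjusted p = 0.31), LOC4347709 at -0.77, LOC4331137 at -0.71 and EXPB15 at -0.66 (SE 0.48). In DXC alone 19 members were called lower and 0 higher, against 14.7% lower and 10.1% higher of all features (24.7% in all), so that the lower share was near that of the members. The median was -0.33 with 81 below 0, and the count was 4, 1 and 31 without experiments 1, 2 and 3. In DXC, EXPB15 fell by 1.87 (SE 0.48; limma adjusted p = 0.00536), LOC4336616 by 1.16, GLU15 by 1.04, LOC9270481 by 0.98, LOC4348121 by 0.78, LOC4326722 by 0.43 and LOC4340642 by 0.34. For DX, blocking on the experiment called 1 member, quantile normalization 1, and the other alternatives run 0.

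**Figure D3:**
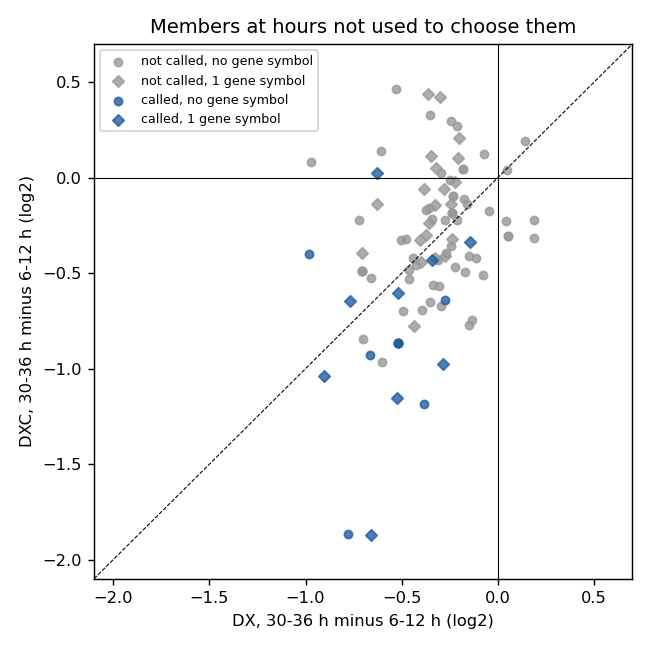
Difference of 30 to 36 h minus 6 to 12 h in log2 units, DX on the horizontal and DXC on the vertical axis, 1 point for each member; blue marks the 18 members called lower over both lines, diamonds have 1 gene symbol, and the dashed line marks equal values. In DX 93 members and in DXC 81 lie below 0, and EXPB15 lies at -0.66 and -1.87.

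The direct test of a difference between the lines in the change from 6 to 12 h to 30 to 36 h called 1 member. LOC4332174 averaged 5.01 ± 0.27 at 6 to 12 h and 4.38 ± 0.14 at 30 to 36 h in DX (± SD, n = 3), and 4.16 ± 0.09 and 4.19 ± 0.04 in DXC. DXC minus DX was 0.66 (SE 0.19; limma adjusted p = 0.0448), with 0.16, 0.97 and 0.84 in the experiments. No member was called the other way, against 0.483% of all features called higher and 2.33% lower (2.81% in all), and 9 members had an unadjusted p under 0.05. The call of LOC4332174 was lost when any 1 experiment was left out (limma adjusted p of 0.106, 0.267 and 0.106 without experiments 1, 2 and 3), under the random block for arrays of consecutive hours (0.126), after quantile normalization (0.0694) and with 30 and 33 h minus 6 and 9 h (0.0579). For EXPB15 the difference between the lines was -1.21 (SE 0.68; limma adjusted p = 0.262), which does not show that the lines acted alike.

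The rule compared late hours with early hours of another time of day, so the same times of day were also set in the opposite order, with 24 and 27 h, which match 0 and 3 h, as the later hours and 15, 18 and 21 h, which match 39 to 45 h, as the earlier ones. None of these arrays served the rule or shares a 4-hour set with it. The later and the earlier hours lie in different 4-hour sets, however, so time of day and array set cannot be told apart here. Over all features the count was 15022, and 0 to 18710 under the alternatives. Over both lines 12 members were called lower, of 7 distinct profiles, and 1 higher, against 21.8% lower and 19.2% higher of all features (41% in all), so that neither share was above the background. The median was -0.13, with -0.30, -0.17 and -0.02 in experiments 1 to 3. LOC4346502 fell by 0.27 (SE 0.10; limma adjusted p = 0.0321) and LOC4351585 rose by 0.40 (SE 0.15; limma adjusted p = 0.0294), while EXPB15 stood at -0.86 (SE 0.38; limma adjusted p = 0.061) and GLU15 at -0.15. The count fell to 0 without experiment 1 and 3 without experiment 2, and was 20 without experiment 3. The calls of LOC4346502 and LOC4351585 were lost under the random block for arrays of consecutive hours. In DX alone no member was called by limma, as was the case for 0% of all features, and 12 had an unadjusted p under 0.05. This count was not stable: it was 5 with the experiment as a block, 5 in a fit of only the groups concerned, 5 without experiment 2, 4 among features with a mean level of at least 5, and 5 with 24 to 30 h minus 12 to 21 h. In DXC only LOC4351585 was called, higher by 0.69, against 3.12% higher and 4.84% lower of all features (7.96% in all). Clock genes also moved in this comparison. Of 6 clock features (GI, PRR1, PRR73, PRR37, CCA1 and PRR95) 4 fell and 0 rose over both lines, all 6 were below 0, and their median was -0.31, further from 0 than that of the members. Over the whole course the range of hourly means was 0.62 in DX and 0.38 in DXC for GI, and it lay between 0.28 and 0.87 for the others. The part of the time of day in the values of members and clock genes cannot be told apart from that of the array sets, and was not tested further.

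The lines were then compared over the hours outside the rule. At 6 to 12 h, EXPB15 was higher in DXC, at 8.62 ± 0.33 against 7.02 ± 1.00 (1.59, SE 0.48; limma adjusted p = 0.0105), with 2.34, 0.47 and 1.97 in the 3 experiments. In the other direction 9 of the 30 genes were lower in DXC. LOC4332174 was at 4.16 ± 0.09 in DXC and 5.01 ± 0.27 in DX (-0.85, SE 0.14; limma adjusted p = 3.57e-06), and the experiments of the lines did not overlap. The largest other differences were those of LOC4339315 (-0.92), LOC4337839 (-0.92), LOC9271283 (-0.88) and LOC4347796 (-0.82), and smaller ones were found for LOC9266169 (-0.55), LOC4346268 (-0.54), LOC4332232 (-0.48) and LOC4346502 (-0.39).

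In all, 11 members were lower and 3 higher in DXC at 6 to 12 h, against 17.9% and 18.8% of all features (36.7% in all). The median was 0.13, with 0.12, -0.14 and 0.38 in the experiments. The wider early DXC arrays bear on this window, and their part in it was not tested beyond the alternatives. The count of 14 became 4, 17 and 8 without experiments 1, 2 and 3.

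At 15 to 36 h the members called were all on the low side. LOC9271283 averaged 4.58 in DXC and 5.55 in DX (-0.97, SE 0.15; limma adjusted p = 2.4e-06), with -0.80, -0.95 and -1.14 in the experiments. LOC4339315 was lower by a difference of -0.69, LOC4336616 by -0.58, LOC9270481 by -0.55, LOC9266169 by -0.43, LOC4337839 and LOC4351585 by -0.42 each, LOC4332174 by -0.35, LOC4346268 by -0.32 and LOC4340642 by -0.19. Of the 100 members 11 were called lower, 10 of them with a gene symbol, and 0 higher, against 2.7% lower and 3.45% higher of all features (6.15% in all). The median of all members was near 0, at -0.09, and experiment 2 was the only one well below it, with -0.32 against -0.01 and 0.03. The count was 7, 11 and 6 without experiments 1, 2 and 3, and 2 under the random block for arrays of consecutive hours. EXPB15 (0.55) and GLU15 (0.29) were not called here, with limma adjusted p of 0.345 and 0.333.

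**Figure D4:**
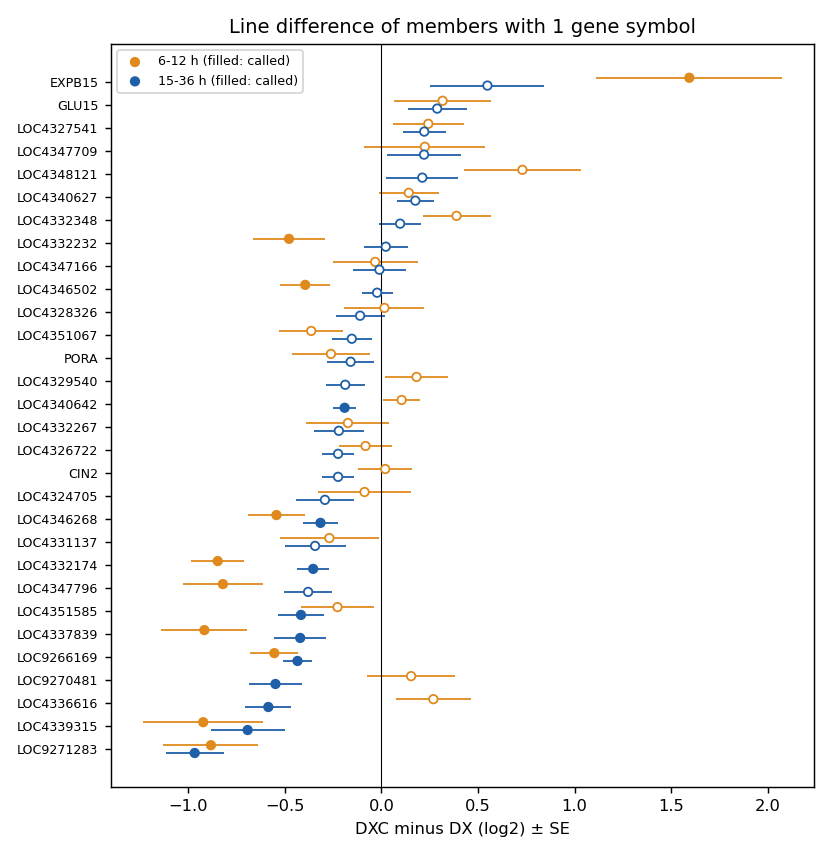
Difference DXC minus DX in log2 units (± SE of the limma fit) for the 30 members with 1 gene symbol, at 6 to 12 h (orange) and 15 to 36 h (blue); filled points were called at an adjusted p under 0.05. EXPB15 is the only gene called higher, at 1.59 at 6 to 12 h, and LOC9271283 is lowest at 15 to 36 h, at -0.97.

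Hour by hour the median difference between the lines changed sign, though not in each experiment. At 0 and 3 h, which served the choice, DXC minus DX already had medians of 0.31 and 0.41, with 84 and 86 members above 0. All features had medians of 0.04 and 0.05 there. For the members the difference was then 0.48 (6 h), 0.13 (9 h), -0.23 (12 h) and -0.31 (15 h). It lay between -0.17 and 0.25 at 18 to 36 h. At 6 h experiments 1 and 3 stood at 0.41 and 0.73 and experiment 2 at 0.00, at 9 h the values were 0.00, -0.22 and 0.46, and at 12 h all 3 were below 0, with -0.18, -0.28 and -0.33. The single hours 6, 9, 12 and 15 h and the changes that follow were looked at after the data had been seen. At 6 h, 3 members were lower and 6 higher in DXC, against 11.2% and 13.2% of all features (24.4% in all). The 9 h comparison called 6 lower and 0 higher, against 2.28% and 5.82% (8.1% in all). For 12 h it was 1 lower and 0 higher, against 0.287% and 0.543% (0.83% in all), and for 15 h 2 lower and 0 higher, against 0.104% and 0.196% (0.3% in all). At 12 h the call was LOC4332174 and at 15 h the calls were CIN2 and LOC4336616.

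**Figure D5:**
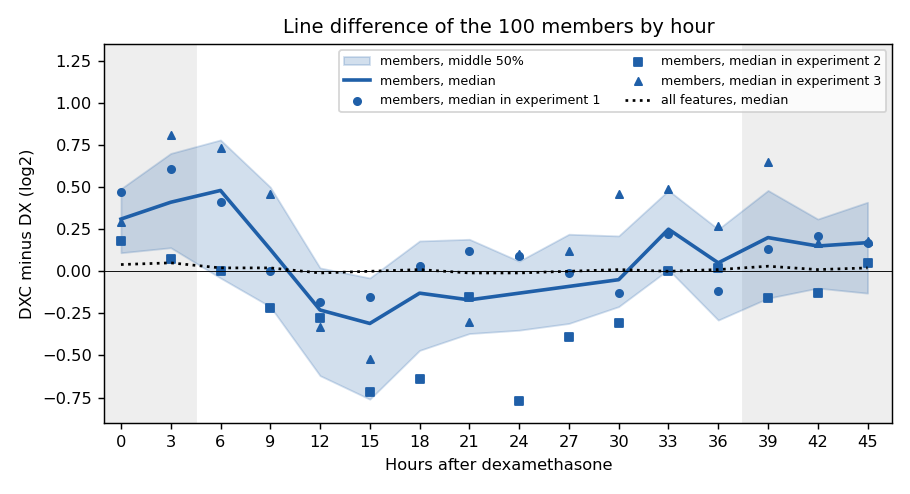
Difference DXC minus DX of the 100 members in log2 units against hours after dexamethasone; the line is the median, the band holds the middle 50% of members, points are the medians in single experiments, the dotted line is the median of all features, and grey bands mark the hours used to choose the members. The median is already 0.31 at 0 h and goes from 0.48 at 6 h to -0.31 at 15 h, while the median of all features stays between -0.01 and 0.05.

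Among the members that followed this course was CIN2. At 6 h it stood at 6.66, 7.11 and 6.34 in DX and 7.16, 7.40 and 7.42 in DXC, and all DXC samples were the higher ones. The 12 h samples were 7.03, 7.24 and 7.30 for DX and 6.19, 6.57 and 6.46 for DXC, and the 15 h samples 6.76, 7.25 and 7.35 against 5.76, 6.22 and 6.44. At both later hours all DXC samples lay below all DX samples. The step from 6 to 12 h crosses the border between array sets named above. From 6 to 12 h CIN2 fell in DXC by 0.92 (SE 0.24; limma adjusted p = 0.0339) and stood 0.49 higher in DX (SE 0.24; limma adjusted p = 0.288), and the difference between these changes was -1.41 (SE 0.34; limma adjusted p = 0.0404), with -1.34, -0.96 and -1.92 in the experiments.

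Over all members the change from 6 to 12 h, also across this border, had a median of 0.08 in DX, with no call by limma (6 at an unadjusted p under 0.05; 0.00273% of all features lower). It was -0.44 in DXC, with 87 members below 0 and 5 called lower and 0 higher, against 0.947% and 0.156% of all features (1.1% in all). These 5 were LOC4331137 (-1.71), LOC4336616 (-1.36), LOC4326722 (-1.06), CIN2 and LOC4340642 (-0.64). DXC minus DX had a median of -0.50, with -0.52, -0.24 and -1.01 in the experiments, and 3 members were called lower (0.426% of all features, with 0.136% higher and 0.562% in all), namely CIN2, LOC4340642 (-0.94, SE 0.23; limma adjusted p = 0.0411) and the feature 16312994 (-2.90, SE 0.65; limma adjusted p = 0.0219), which has no gene symbol. No member was called in this difference when any 1 experiment was left out, nor in a fit of only the groups concerned. Quantile normalization, which evens the spread of the arrays, also lost the calls of CIN2 and LOC4340642. Between 6 and 9 h, hours of 1 array set, the median difference was -0.33 with 0 calls by limma (5 at an unadjusted p under 0.05; 0% of all features lower and 0.00546% higher).

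The later course differed between experiments. From 15 to 21 h to 30 to 36 h the median change in DX was -0.37, with -0.29, -0.35 and -0.32 in the experiments and 90 members below 0, and in DXC it was -0.01, with -0.30, -0.08 and 0.23. In experiment 1 DXC thus stood as much lower as DX. No member was called in DX by limma (24 at an unadjusted p under 0.05), as was no feature of the whole array (0%), and in DXC 1 feature without a gene symbol was called higher, against 1.99% higher and 4.18% lower of all features (6.17% in all). The difference between the lines had a median of 0.27, with 0.01, 0.27 and 0.55 in the experiments, 84 members above 0, 12 at an unadjusted p under 0.05 and 0 called by limma (0% of all features). CIN2 had 0.64 here (SE 0.20; limma adjusted p = 0.624).

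Other genes of the pathways the named members belong to were read in the same tests. Of 46 expansin and XTH features, the list that holds EXPB15, 4 fell and 0 rose between 6 to 12 h and 30 to 36 h over both lines, against 4.15% and 1.53% of all features. All were beta-expansins: EXPB15, EXPB6 (-0.83, SE 0.23; limma adjusted p = 0.0225), EXPB11 (-0.44) and EXPB4 (-0.26). The family did not move as a whole, since EXPB14 rose in DXC alone by 0.70 (limma adjusted p = 0.00645). In DXC alone 14 fell and 4 rose, against 14.7% and 10.1% of all features, in DX alone none was called by limma, and the median of the list was -0.01 in each. Of 47 sugar transport and metabolism features, the list that holds CIN2, 6 fell and 1 rose over both lines, against 4.15% and 1.53% of all features. In DXC alone 12 fell and 2 rose, against 14.7% and 10.1%, and in DX alone none was called by limma. OsSWEET15, a sucrose transporter gene, fell by 1.00 (SE 0.12; limma adjusted p = 2.19e-08), OsSWEET1a by 0.42 and OsSWEET2a by 0.39, the trehalose phosphatase gene OsTPP2 by 0.18, the invertase gene CIN1 by 0.22 and the sucrose synthase gene OsSUS6 by 0.19, and OsSWEET16 rose by 0.30. The list's median was 0.01. The falls given by gene are averages of the lines. In DXC alone OsSWEET15 fell by 1.58, OsSWEET1a by 0.87 and EXPB6 by 1.46. DXC minus DX was -1.17 for OsSWEET15 (limma adjusted p = 0.00177) and -0.89 for OsSWEET1a (limma adjusted p = 0.038). OsSWEET13, OsSUS7, EXPB16, EXPA5, EXLA1, EXPB17 and EXPA10 were also called lower in this difference, and no feature of either list higher. Of all features 2.33% were called lower and 0.483% higher. Of the 7 leaf photosynthesis features none was called by limma between 6 to 12 h and 30 to 36 h over both lines, with a median of -0.04. At the hours of the rule their median change was -0.05 in DX and -0.45 in DXC, though RBCS1 stood higher late in both (0.13 and 0.09). This was not particular to leaf genes. Cytosolic ribosomal proteins had medians of -0.07 in DX and -0.37 in DXC, and core histones of -0.01 and -0.32. Other lists went the other way, such as the pathogenesis-related one at 0.63 and 0.33. The part of any of these lists in the members' values was not tested.

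Some members lie close together, though rarely side by side, on the array's list of features, whose named features follow the order of genes on the chromosomes (99.9% of consecutive named features share a chromosome). Joining members at most 12 rows from the next gave 9 runs of 2 to 5 members, spanning 3 to 17 rows each, and the median correlation within a run went from -0.33 to 0.91 over the 22 group means at 6 to 36 h. The lowest was a run of 2 features without a symbol. The run of 4 was LOC4329540 with 3 features of no symbol on chromosome 2, between GT2 and LOC4329541, over 6 rows, with a median correlation of 0.91. The run of 5 features without a symbol covered 17 rows between LOC4352441 and LOC4352443 on chromosome 12, with a median correlation of 0.40. EXPB15 and LOC4336616 lay 9 rows apart on chromosome 4 and correlated by 0.37. These correlations are across groups that share arrays and are a description.

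Over the same 22 group means the members were only loosely alike. Their correlation with the mean profile of the set had a median of 0.54 and ran from -0.06 to 0.88, with 55 members over 0.5, against a median of 0.07 for all features. EXPB15 was at 0.55 and GLU15 at 0.62. The features outside the set that were most like it were ANT (0.93), LOC4330770 (0.92) and LOC4344524 (0.92). Their smaller fall was -0.11, -0.16 and -0.17, too small for the set.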

How the data were processed

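The authors deposited log2 expression values of 36643 features on 96 arrays, and these were used unchanged. GCRMA is named per the submitters' processing notes; it subtracts a background modelled on base content and then normalizes and summarises the probes. No version of it was found in the labels. Depth does not apply to arrays, and their number limits the precision. No column lacked a sample (0).

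The rule used the means of the 3 experiments. Hours 6 to 36 were tested with limma 3.58.1 in R 4.3.3 (lmFit and eBayes with an intensity trend, 32 group means, 64 residual degrees of freedom, two-sided). p-values were adjusted by Benjamini-Hochberg over all 36643 features for each contrast, and values under 0.05 were called. The fit was tested on simulated data with known changes. Tables were made with Python 3.11.15 and pandas 2.3.3.

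Gene symbols come from the platform annotation, and synonyms and gene order from the RefSeq gene table of ASM3414082v1. Members and lists were chosen with earlier results of these data known. Named were the members with 1 symbol that had the 10 largest falls, a name, a place on a list, a place at the threshold, or one of the 4 largest or smallest values of a test, or that were called in a line difference. Other called genes, and the feature 16312994, were named after their values were seen.

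Replicate numbers mark independent experiments per the series text, so equal numbers pair the lines. Deviations from group means, compared between the lines at each hour, correlated by 0.05 on average over the 48 same-numbered pairs and by -0.03 for unequal numbers, with 16 pairs over 0.1 and a lowest value of -0.64. Alternatives were the experiment as a block, array sets as a random block (correlation 0.44), quantile normalization, no trend, a mean level of at least 5, each experiment left out, only the groups of a contrast, and other hours. The array sets of 4 consecutive hours are hours whose array summaries move together, not a labelled batch.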

Additional observations from a re-analysis of the deposited data

Results flagged for a closer look

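In 4 members a test of whether a change over time differed between the lines passed an adjusted p of 0.05 in limma. Members called in a line difference at given hours are in the sections above. LOC4332174 differed between the lines in its change from 6 to 12 h to 30 to 36 h, by 0.66 (DXC minus DX, SE 0.19; adjusted p = 0.0448), and kept this call in 3 of 9 alternatives. In the change between 6 h and 12 h, chosen after seeing the data, CIN2 differed by -1.41 (SE 0.34; adjusted p = 0.0404) and LOC4340642 by -0.94 (SE 0.23; adjusted p = 0.0411), each called in 4 of 9 alternatives. Neither of these genes kept the call after quantile normalization, and 6 h and 12 h lie in different array sets. The feature 16312994, which has no gene symbol, differed by -2.90 (SE 0.65; adjusted p = 0.0219), with -2.55, -3.67 and -2.49 in the experiments. Groups of 3 arrays are too small for a test of single outlying samples.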

How the results depend on the processing

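Counts are members called in either direction. With the experiment as a block, which pairs the lines, the count went from 18 to 31 for 30 to 36 h minus 6 to 12 h over both lines, from 0 to 1 in DX, from 0 to 5 (DX) and 1 to 4 (DXC) for the hour-of-day comparison, from 1 to 3 at 12 h, 2 to 4 at 15 h, 3 to 5 for the line difference of the change from 6 to 12 h, and 1 to 2 for DXC from 15-21 to 30-36 h; no other count moved by over 1.5 times. The random block for arrays of consecutive hours gave 5 (both lines, matched hours), 0 (DXC minus DX), 7 and 0 (hour of day, both lines and DXC), 2 (lines at 15 to 36 h) and 0 (DXC, 15-21 to 30-36 h). With only the groups of the contrast they were 8 (both lines) and 11 (DXC) at matched hours, 5 (DX) and 0 (DXC) for hour of day, 1, 0, 2 and 0 for the lines at 6, 9, 12 and 15 h, 8 and 0 for the change from 6 to 12 h in DXC and its line difference, and 7 (DX) and 0 (DXC) from 15-21 to 30-36 h. Quantile normalization gave 1 (DX) and 0 (DXC minus DX) at matched hours, 2 at 12 h, 2 and 1 for the change from 6 to 12 h in DXC and its line difference, 2 in DXC from 15-21 to 30-36 h, and a DX median of -0.27 there. With a mean level of at least 5 the counts were 0 (DXC minus DX, matched hours), 4 (DX) and 3 (DXC) for hour of day, 6 and 5 for the lines at 6 to 12 and 15 to 36 h, 5, 1, 0 and 1 at 6, 9, 12 and 15 h, 2 for the change from 6 to 12 h in DXC, and 0 in DXC from 15-21 to 30-36 h. 30 and 33 h minus 6 and 9 h gave 29 in DXC and a median of -0.18 for DXC minus DX. 24 to 30 h minus 12 to 21 h gave 21 over both lines, 5 in DX and 7 in DXC.

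Members with 1 gene symbol alone, a count taken after seeing the data, gave 9 (both lines) and 7 (DXC) at matched hours, 2 for hour of day, 5 at 6 h and 0 in DXC from 15-21 to 30-36 h, with medians of -0.10 for hour of day in DX, -0.24 at 9 h and -0.34 at 12 h. Each distinct profile once, also added later, gave 8 for hour of day. Leaving out 1 experiment gave 1 to 50 and 1 to 31 at matched hours over both lines and in DXC, 0 to 2 for DXC minus DX, 0 to 20, 0 to 5 and 0 to 19 for hour of day over both lines, in DX and in DXC, 4 to 17 and 6 to 11 for the lines at 6 to 12 and 15 to 36 h, 1 to 12, 1 to 9, 0 to 0 and 0 to 0 at 6, 9, 12 and 15 h (12 h median -0.36 to -0.19), 0 to 1 and 0 to 0 for the change from 6 to 12 h in DXC and its line difference, and 0 to 20 in DXC from 15-21 to 30-36 h (DX median -0.34 to -0.28).

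The choice of members moved too. Of the 100, 43 to 56 were found again without 1 experiment, 79 after quantile normalization, 51 among features with a mean level of at least 5 (51 members reach it) and 34 with 24 and 27 h in place of 39 to 45 h. Of 526 repeats of the 60 calls on single genes 339 kept the call and 0 reversed. The causes were not tested. Over all features the count at matched hours over both lines was 2080, and 202 to 13045 under the alternatives.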
